A study of Caenorhabditis elegans with 4 samples.

Results

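The core of intraflagellar transport complex B (IFT-B core, also called IFT-B1) was described through 8 *C. elegans* genes, *osm-5*, *osm-6*, *ift-74*, *ift-81*, *dyf-1*, *dyf-6*, *dyf-13* and *ifta-2*. Its members were all probe sets that the platform annotation assigns to 1 of these genes alone, with no regard to their values. These were 10 of the 22548 probe sets that are not controls, and 8 of the 17118 genes they name. Total RNA of frozen embryos, collected by hypochlorite treatment of gravid adults, was hybridized to 4 Affymetrix *C. elegans* genome arrays. The label *daf-19(-)* stands for 2 arrays of double mutants, in which *daf-19(m86)* was combined with *daf-12(sa204)*. The label *daf-19(+)* stands for 2 arrays of *daf-12(sa204)* single mutants, so that all arrays share the *daf-12* mutation. The *daf-12* allele was there because *m86* alone drives larvae into the dauer stage, which keeps such strains from growing in bulk. A supplementary table calls the second pair of arrays a biological replicate, and no source used here says more on separate cultures.

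The names of the groups are contradicted within the study. The same table, of array results, heads the arrays labelled *daf-19(-)* as *daf-12* and those labelled *daf-19(+)* as *daf-19;daf-12*. Its 4 columns of signals match, within 0.05 signal units, the arrays of the opposite label in all 8 rows held here for IFT-B core probe sets, and in 1998 of 1998 rows in all. *daf-19* itself, an RFX-type transcription factor gene, had signals of 2493 and 2365 under the label *daf-19(-)*, against 767.5 and 856.8 under the label *daf-19(+)* (adjusted p = 0.00166 from limma). Its other probe set had 1456 and 1231 against 440.2 and 460.2 (adjusted p = 0.00513 from limma). *daf-19* RNA was therefore higher where the labels say that the gene is mutated. No source used here says whether *m86* removes the RNA that these probes detect. All values below run from the arrays labelled *daf-19(+)* to those labelled *daf-19(-)*. By the supplementary table each of them runs the other way, and the results of the study use that direction. The methods of the study assign the arrays as the deposited labels do.

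Intraflagellar transport carries cargo along the microtubules of a cilium on trains of protein complexes. Kinesins move the trains to the ciliary tip and a dynein moves them back. Complex B is needed to build the cilium, and its core holds together the train and binds cargo such as tubulin, while its peripheral subunits, complex A and the motors attach to it. In *C. elegans* only sensory neurons have cilia, and worms lacking most core subunits have short cilia and fail to take up dye or to sense chemicals. In bulk embryo RNA fewer ciliated cells and less RNA per ciliated cell cannot be told apart.

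DAF-19 acts through the X-box, a nearly palindromic promoter motif. Of the 13 genes whose 15 X-boxes served to train the motif profile of the study, 2 are core genes, *osm-5* on chromosome X and *osm-6* on chromosome V, as RefSeq places them (WBcel235). Their 3 words of 14 bases are shown because both genes are known targets of DAF-19 and these are the words the study used for them. Capitals mark the 5 positions that are the same in all 15 training words.
*osm-5*, X-box a: GgtgccATggcaAC
*osm-5*, X-box b: GttactATggcaAC
*osm-6*, X-box: GttaccATagtaAC
The *osm-5* words share 11 of 14 letters with each other. The *osm-6* word shares 10 with the former of them and 11 with the latter. Read on the opposite strand, *osm-5* X-box a and the *osm-6* word each keep 12 of their 14 letters, and *osm-5* X-box b keeps 10. No promoter sequence was used here, so the remaining 6 genes were not searched for X-boxes. Of these, the study itself lists *ift-74*, *ift-81* and *ifta-2* among genes with X-boxes in their promoters. Its text also names *dyf-1* as an example of genes known to be regulated through the X-box.

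IFT-B core RNA was brighter on the arrays labelled *daf-19(-)*. Of its 10 probe sets, 9 had both signals of that group above both signals of the other, against 26.4% of all probe sets, and 9 had a ratio of mean signals of 2 or more, against 12.7% of all. The exception to both was 1 of the 2 probe sets of *ift-81*. By log2 fold change 6 of the 9 that were tested stood among the top 50 tested probe sets. The median log2 fold change of the 10, with 16 added to each signal, was 2.07, against 0.08 over all 22548 probe sets. These counts and medians are descriptions, since the genes were chosen with earlier results of these arrays known.

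**Figure D1:**
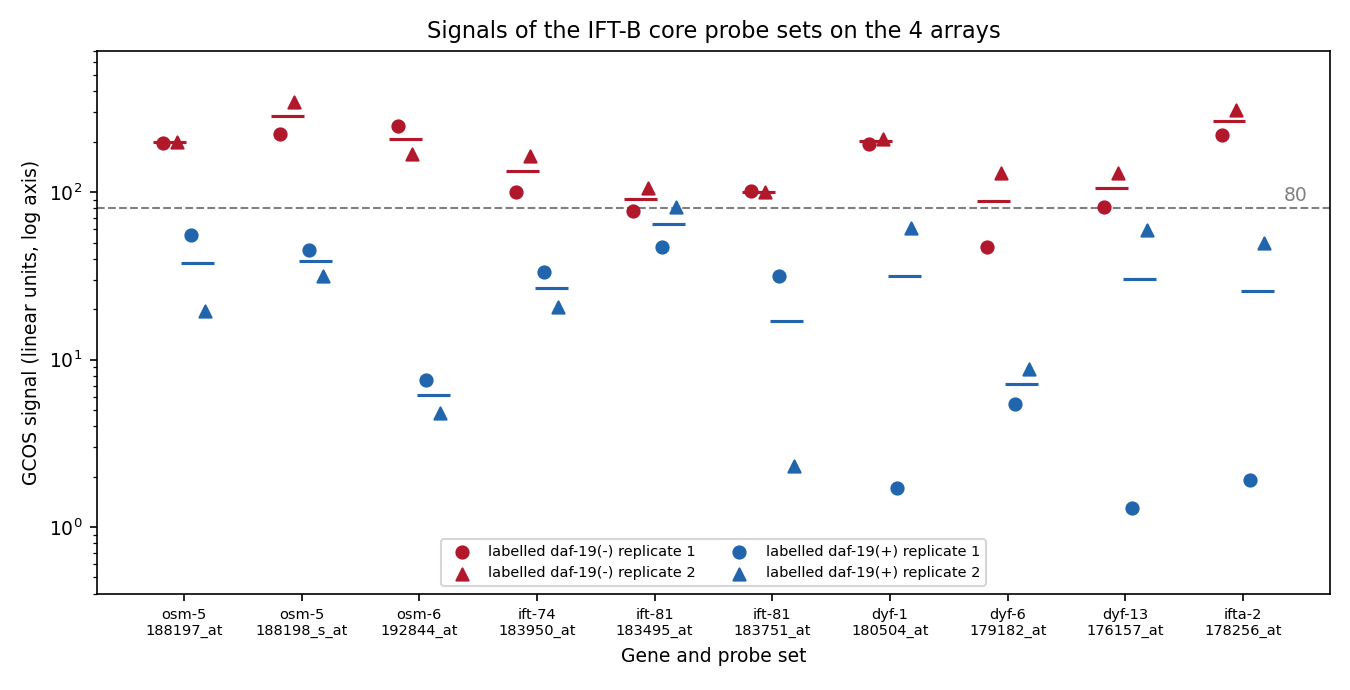
Signal of each IFT-B core probe set on each array (log axis), with circles for replicate 1, triangles for replicate 2 and short lines for the mean of each group of 2. In 9 of the 10 probe sets both red points, the arrays labelled *daf-19(-)*, lie above both blue ones, and 19 of the 20 blue points lie under the dashed line at 80.

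The difference rests on dim signals. Each array had been scaled to a common target signal, and probe sets were tested where 2 or more arrays had signals of at least 80. On the arrays labelled *daf-19(-)* 18 of 20 core signals reached 80, with a range of 46.8 to 347.1. On those labelled *daf-19(+)* 19 of 20 lay under 80, with a range of 1.3 to 81.2. Of the 10 probe sets 9, of 7 genes, passed the filter. They passed through the arrays labelled *daf-19(-)*, on which they are bright. The exception was *ift-81* 183495_at, which passed with 106.3 under that label and 81.2 under the other. In limma on log2(signal + 16), 3 of these 9 were higher at an adjusted p under 0.05 and 0 lower, against 0.359% of 13096 tested probe sets higher. At an unadjusted p under 0.05, 1470 of all tested probe sets were higher and 925 lower.

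*osm-5*, the ortholog of mammalian IFT88 (Tg737, polaris), a long repeat protein whose loss causes cystic kidneys in mice, was measured by a pair of probe sets. The probe set 188198_s_at, whose suffix marks probes shared by more than 1 transcript, gave 223 and 347.1 under the label *daf-19(-)*, against 45.4 and 31.7 under the label *daf-19(+)*. Its log2 fold change was 2.44 ± 0.40 SE (limma, adjusted p = 0.0107) and its ratio of mean signals 7.39. The groups do not overlap, and with 1 array left out the ratio stayed between 5.78 and 9.004. The probe set 188197_at had 196.8 and 200.3 against 55.6 and 19.6. The 2 higher values of 188197_at are nearly equal and nearly all of its spread lies in the lower group. Its log2 fold change was 2.09 ± 0.45 (SE) and missed the threshold (adjusted p = 0.0646 from limma). Its ratio was 5.28, and 3.57 to 10.1 with 1 array left out. Thus both probe sets of *osm-5* gave differences of one sign. The log2 fold changes of the pair differed by 0.36 (p = 0.667, two-sided exact permutation test over the 4 arrays, which cannot go below 0.333).

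*osm-6* encodes IFT52, which in *Chlamydomonas* binds several other core subunits. It gave 248 and 170 under the label *daf-19(-)*, against 7.5 and 4.8 under the label *daf-19(+)*. The low group is the dimmest of all core probe sets by mean signal, 6.15 ± 1.91 (SD, n = 2) against 209 ± 55.2 (SD, n = 2). The log2 fold change of 3.33 ± 0.50 SE (limma, adjusted p = 0.00799) was the sixth of all tested probe sets from the top, and the largest among the core. Its ratio of 33.98 was nearly the same within replicate 1 (33.1) and replicate 2 (35.4). As signals of 4.8 and 7.5 are far below 80, the size of that ratio is uncertain: with every signal under 80 set to 80 it was 2.61.

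*ifta-2*, on chromosome IV, encodes a small GTPase-like protein of the RABL5 (IFT22) family. In *C. elegans* its loss is known to alter dauer formation and lifespan while leaving cilia largely intact. It gave 220.9 and 309.2 under the label *daf-19(-)*, against 1.9 and 49.7 under the label *daf-19(+)*. The groups are far apart, and the lower ones differ strongly from each other. The log2 fold change was 3.02 ± 0.56 SE (limma, adjusted p = 0.0288), with a ratio of 10.3. The ratio was 5.33 without replicate 1 labelled *daf-19(+)* and 139.5 without replicate 2 of that label.

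None of the 3 calls held without an array labelled *daf-19(-)*. With 1 array left out the lone array of its group was assumed to vary like the others. Without either array labelled *daf-19(-)* limma also called fewer probe sets higher in all than with every array kept. Without replicate 1 labelled *daf-19(-)* the adjusted p was 0.0603 for *osm-5* 188198_s_at, 0.48 for *osm-6* and 0.109 for *ifta-2*. Without replicate 2 of that label it was 0.256, 0.14 and 0.226. Without replicate 1 labelled *daf-19(+)* *ifta-2* had 0.087, while *osm-6* (0.0228) and *osm-5* 188198_s_at (0.0413) still passed, as did *osm-5* 188197_at (0.0456), each from limma. Leaving out replicate 2 labelled *daf-19(+)* let 6 of the 10 pass, with *dyf-1* (0.0082), *dyf-13* (0.0202) and *osm-5* 188197_at (0.0306) added, and that setting called 971 probe sets higher in all.

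**Figure D2:**
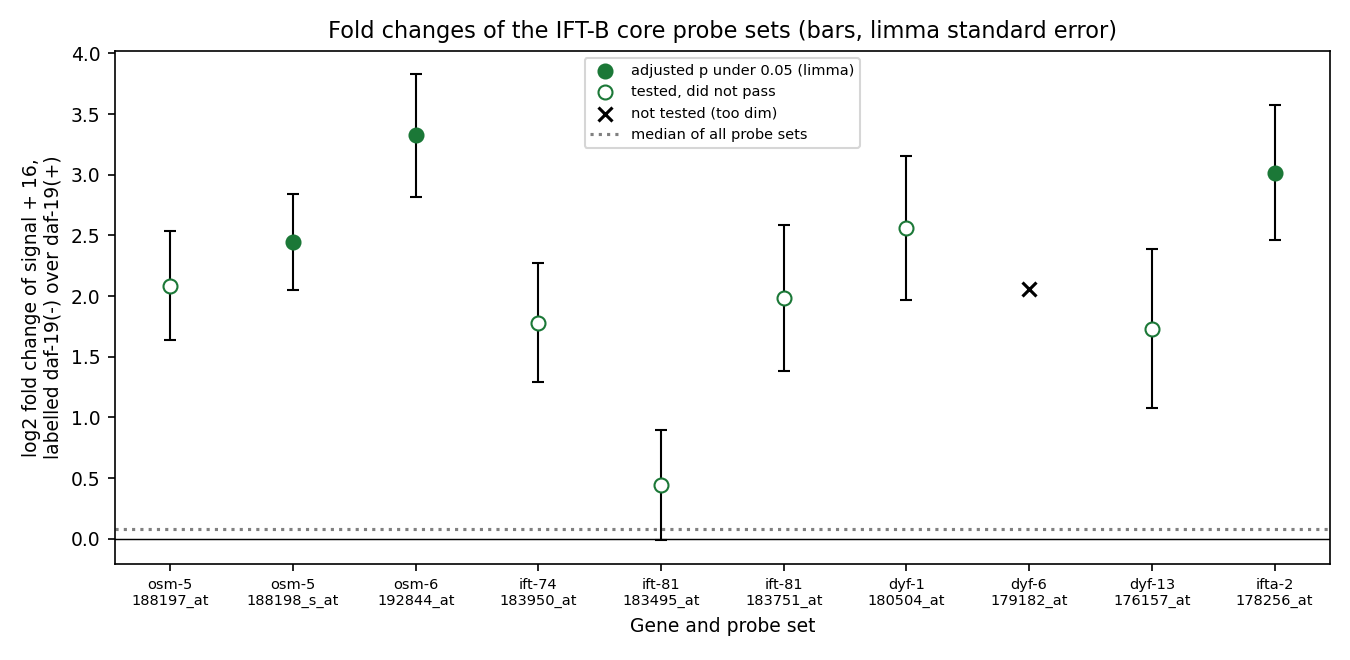
Log2 fold change of each IFT-B core probe set, on signals with 16 added, arrays labelled *daf-19(-)* over arrays labelled *daf-19(+)*; bars are the limma standard error and the cross marks the untested *dyf-6*, which has none. Filled points (*osm-5* 188198_s_at, *osm-6* and *ifta-2*) passed an adjusted p of 0.05, and *ift-81* 183495_at is the lowest at 0.44.

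The paired subunits *ift-74* and *ift-81* encode proteins that form a coiled-coil dimer, and their human counterparts bind tubulin. *ift-74*, on chromosome II, gave 100.7 and 165.5 under the label *daf-19(-)*, against 33.2 and 20.5 under the label *daf-19(+)*. The groups do not overlap. The log2 fold change was 1.78 ± 0.49 SE (limma, adjusted p = 0.119), with a ratio of 4.96.

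*ift-81*, on chromosome X, had positive differences with both of its probe sets, and neither passed limma. The probe set 183751_at had 101 and 100.7 against 31.5 and 2.3, a log2 fold change of 1.99 ± 0.60 SE (limma, adjusted p = 0.141). The probe set 183495_at had 76.9 and 106.3 against 47.2 and 81.2, and here the groups overlap. Its log2 fold change was 0.44 ± 0.46 SE (limma, adjusted p = 0.623). The ratio of mean signals was 5.97 for 183751_at and 1.43 for 183495_at, and with 1 array left out the former ranged from 3.20 to 43.9 and the latter from 1.13 to 1.94. The log2 fold changes differed by 1.54 (p = 0.333, two-sided exact permutation test over the 4 arrays, the smallest it can give). With signals under 80 set to 80 the ratios were 1.26 and 1.16. The places of both probe sets in the gene were not used here, and what sets them apart was not tested.

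The remaining 3 core genes are named for defective dye filling. *dyf-1* encodes the ortholog of IFT70, which in *C. elegans* is needed for the kinesin OSM-3 to build the distal part of the cilium. *dyf-1* gave 195.2 and 209 under the label *daf-19(-)*, against 1.7 and 61.2 under the label *daf-19(+)*. The higher values lie close together, and the lower ones are both below them but far from each other. Its log2 fold change was 2.56 ± 0.59 SE (limma, adjusted p = 0.0823). The ratio of 6.43 ranged from 3.30 without replicate 1 labelled *daf-19(+)* to 118.9 without replicate 2 of that label.

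*dyf-13*, on chromosome II, encodes the ortholog of IFT56. It gave 82.1 and 130.7 under the label *daf-19(-)*, against 1.3 and 59.3 under the label *daf-19(+)*. The groups do not overlap, with a gap from 59.3 to 82.1 between them. The log2 fold change was 1.73 ± 0.66 SE (limma, adjusted p = 0.201). Its ratio of 3.51 fell under 2 (1.79) without replicate 1 labelled *daf-19(+)*, where no other core probe set that was 2-fold higher did, and was 81.8 without replicate 2.

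*dyf-6*, on chromosome X, encodes the ortholog of IFT46, which in the alga *Chlamydomonas* is needed to bring outer dynein arms into the flagellum. It was too dim to test. It gave 46.8 and 130.6 under the label *daf-19(-)*, against 5.4 and 8.8 under the label *daf-19(+)*, so that 1 of the 4 signals reached 80. The groups do not overlap. The ratio was 12.5, and was 6.59 without replicate 2 labelled *daf-19(-)*, 18.4 without replicate 1 of that label and 1.32 with signals under 80 set to 80. In a fit with no filter its adjusted p was 0.296 from limma, and in that fit 0 of the 10 core probe sets passed, against 0.0488% of 22548 probe sets called higher.

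Ratios within a replicate number varied widely for 4 core probe sets. *dyf-1*, *dyf-13* and *ifta-2* had ratios of 3.41, 2.20 and 6.22 within replicate 2 and far higher ones within replicate 1, and *ift-81* 183751_at had 3.21 within replicate 1 and a far higher one within replicate 2. In these 4 probe sets 1 array labelled *daf-19(+)* read 1.3 to 2.3 and the other 31.5 to 61.2, and ratios over so low a signal have no firm size. In each replicate 9 of the 10 ratios were 2 or more. In the brighter group replicate 2 was the higher array for 8 of the 10 probe sets, with *osm-6* and *ift-81* 183751_at as the exceptions. The sum of the 10 signals came to 1491 and 1869 under the label *daf-19(-)*, against 230.7 and 339.1 under the label *daf-19(+)*.

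**Figure D3:**
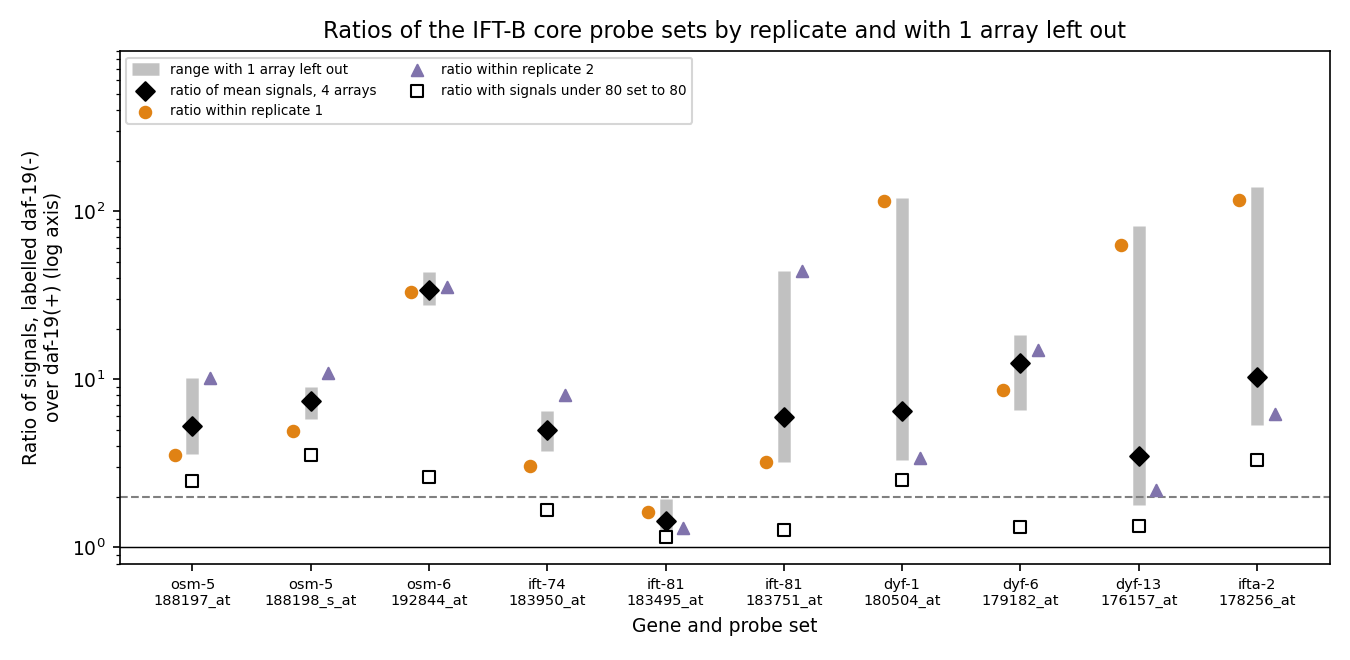
Ratio of signals, arrays labelled *daf-19(-)* over arrays labelled *daf-19(+)* (log axis), for each IFT-B core probe set, with all arrays (diamond), within each replicate number, and with signals under 80 set to 80 (open square); grey bars span the ratios with 1 array left out. The bar of *osm-6* runs from 27.6 to 43.5 and that of *ifta-2* from 5.33 to 139.5, and 5 of the 10 open squares lie above the dashed line at 2.

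With signals under 80 set to 80, a setting chosen after seeing the data, 5 of the 10 ratios were still 2 or more, against 0.869% of all probe sets in the same setting. These were *osm-5* 188198_s_at (3.56), *ifta-2* (3.31), *osm-6* (2.61), *dyf-1* (2.53) and *osm-5* 188197_at (2.48). The remaining 5 ranged from 1.16 for *ift-81* 183495_at to 1.66 for *ift-74*. For these 5 much of the difference lies below 80, and the median log2 fold change of the core fell to 0.88. 0 of the 9 tested passed limma in this setting. No count over all tested probe sets was made for it, so whether this loss is particular to the core cannot be told.

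The supplementary table sets out the arrays as a pair of experiments with a fold within each, so the replicate numbers pair the arrays. With the replicate number as a block 8 of the 9 tested core probe sets passed limma, against 4.37% of tested probe sets called higher. *osm-6* had an adjusted p of 4.06e-07, *osm-5* 188198_s_at 7.08e-07, *ifta-2* 3.09e-08, *dyf-1* 2.34e-05, *osm-5* 188197_at 0.000405, *ift-74* 0.0162, *ift-81* 183751_at 0.0218 and *dyf-13* 0.036. *ift-81* 183495_at did not pass (0.612). In this fit limma took all variances from their trend with brightness, so the spread of a single probe set has no part in these p-values. With the block and no filter, a setting added after seeing the data, 4 of the 10 passed, against 0.426% of all probe sets. These were *osm-6* (0.00622), *ifta-2* (0.00839), *osm-5* 188198_s_at (0.0158) and *dyf-1* (0.0401), while *osm-5* 188197_at (0.0601), *ift-81* 183751_at (0.123), *ift-74* (0.14) and *dyf-13* (0.177) no longer did.

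The other parts of the transport train were counted from lists of known genes, against the shares already given of 0.359% of tested probe sets higher by limma and 12.7% of all at least 2-fold higher. Of the IFT-B peripheral genes, 5 of 6 had a probe set of their own. Of their 5 tested probe sets 2 were higher and 0 lower by limma, *che-13* (IFT57) (log2 fold change 2.95, adjusted p = 0.0223) and *dyf-3* (2.09, adjusted p = 0.0494). Over all 6 of their probe sets the median log2 fold change was 1.93, and 5 were at least 2-fold higher. Besides *dyf-3* (ratio 5.30) these were those of *che-2* (11.01), *osm-1* (4.27) and both of *che-13* (15.4 and 2.41). Without replicate 2 labelled *daf-19(+)* the dimmer probe set of *che-13* fell to 1.99. With signals under 80 set to 80 the ratios were 2.83 for *dyf-3*, 1.68 for *che-2*, 2.41 for *osm-1* and 2.34 and 1 for *che-13*. *dyf-11*, the ortholog of IFT54, ran against the rest, with 65.0 and 80.1 on the arrays labelled *daf-19(-)* against 100.6 and 136.8 (adjusted p = 0.443 from limma). Complex A had a median of 1.73 over 8 probe sets, 7 of them at least 2-fold higher, and 1 of its 6 tested probe sets passed limma, *ifta-1* (1.95, adjusted p = 0.0102). Besides *ifta-1* (ratio 4.27) the 2-fold ones were those of *che-11* (2.98), *daf-10* (2.82), *dyf-2* (5.33 and 16.6) and *ift-139* (5.35 and 7.93, too dim to test). Without replicate 1 labelled *daf-19(+)* *che-11* fell to 1.80. Set to the floor of 80, the complex A ratios were 4.27 for *ifta-1*, 2.01 for *che-11* and 1.56 for *daf-10*. Those of *dyf-2* were 1.61 and 1.16, and those of *ift-139* 1 and 1.22.

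The motor list was mixed. Of its 11 probe sets 3 were at least 2-fold higher, by 10.4 to 22.7 times. These were of the retrograde dynein genes *che-3* (heavy chain), *xbx-1* (light intermediate chain) and *dylt-2* (light chain). With signals under 80 set to 80 their ratios were 5.32, 1.87 and 2.37. Of the 10 tested probe sets 2 passed limma, *che-3* (log2 fold change 3.24, adjusted p = 0.00723) and *xbx-1* (2.87, adjusted p = 0.0303). Of the 5 genes of these lists that passed limma, *che-3* alone passed without any 1 of the arrays (adjusted p up to 0.021). Without replicate 2 labelled *daf-19(-)* the adjusted p was 0.254 for *che-13*, 0.396 for *dyf-3*, 0.14 for *ifta-1* and 0.459 for *xbx-1*. All of these 5 genes but *ifta-1* passed the filter through the arrays labelled *daf-19(-)*, on which they are bright. In the fit with no filter none of them passed, *che-3* included. There the adjusted p from limma was 0.165 for *che-3*, *xbx-1* and *ifta-1*, 0.196 for *che-13* and 0.289 for *dyf-3*. The 8 probe sets of the kinesin genes *osm-3*, *klp-11*, *klp-20* and *kap-1* had ratios from 0.923 to 1.55. That of *osm-3* was too dim to test, with 33.7 and 65.5 under the label *daf-19(-)* against 69.2 and 25.7, so its ratio has no firm size. Whether the core differs from these lists was not tested.

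**Figure D4:**
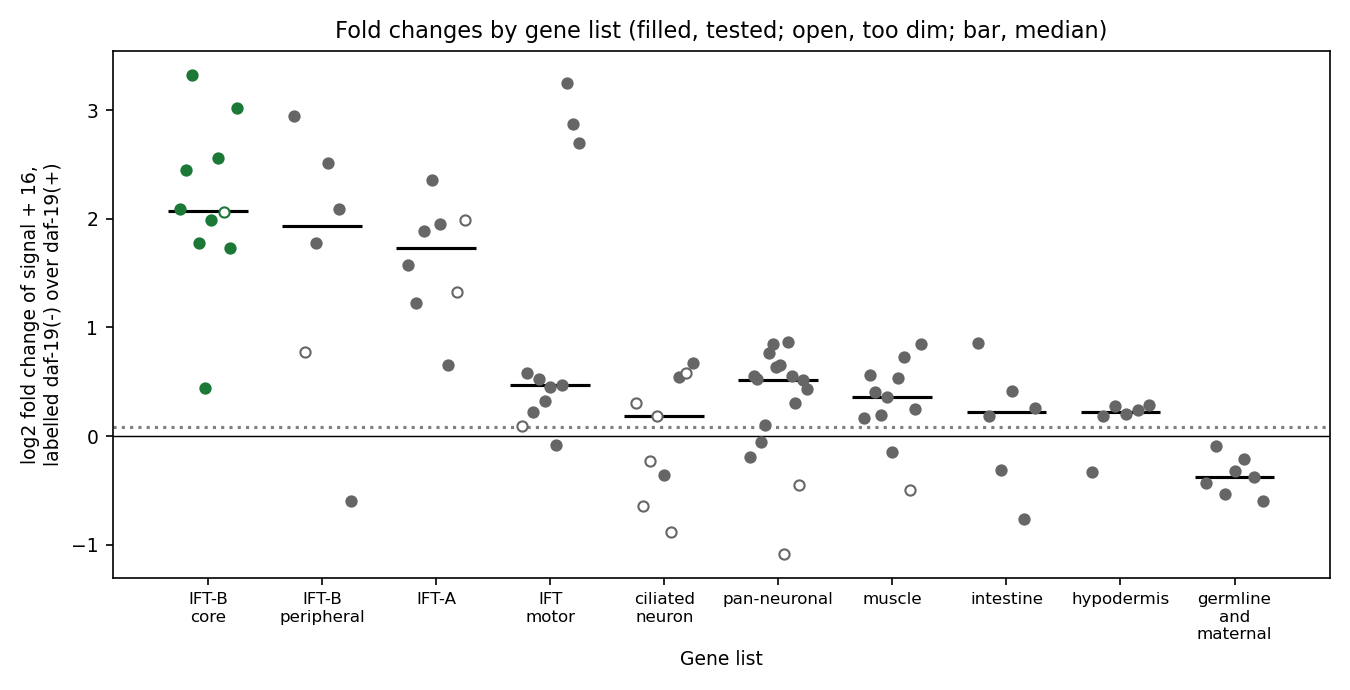
Log2 fold change (signal + 16, arrays labelled *daf-19(-)* over arrays labelled *daf-19(+)*) of every probe set of each list, IFT-B core in green, filled where tested and open where too dim; bars are medians and the dotted line is the median of all probe sets, 0.08. The medians are 2.07 for IFT-B core, 1.93 for IFT-B peripheral, 1.73 for IFT-A and 0.47 for the motors, and lie between -0.38 and 0.52 for the marker lists drawn.

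The 5 probe sets whose pattern over the 4 arrays lay closest to the mean pattern of the 9 tested core probe sets, of 12482 other tested probe sets of 1 gene, were those of *ifta-1*, F47G4.5, *dyf-18*, *dyf-3* and R102.2. The measure was the Euclidean distance of log2 signals centred on their own mean, and it ran from 0.22 for *ifta-1* to 0.35 for R102.2. The core probe sets themselves lay from 0.65 (*osm-5* 188198_s_at) to 1.72 (*ift-81* 183495_at) from their mean. R102.2 gave 281.8 and 329.1 under the label *daf-19(-)*, against 36.3 and 79.3 under the label *daf-19(+)*. F47G4.5 had 126.4 and 123.1 against 10.6 and 21.9.

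Few markers of ciliated sensory neurons outside the transport train were bright enough to test. For *osm-9*, *ocr-2*, *odr-10*, *tax-2*, *tax-4*, *che-12* and *che-10* 3 of 9 probe sets were tested, 0 passed limma, 0 were 2-fold higher, 1 of *tax-4* was 2-fold lower and the median log2 fold change was 0.19. Their summed signal was 754.0 and 887.7 against 531.0 and 843.6, so the groups overlap. The sensory channel and receptor genes *osm-9*, *ocr-2*, *odr-10* and *tax-2* were under 80 on all arrays. Summed signals of other tissues are given in the same order of labels. For 16 pan-neuronal probe sets they were 16352 and 15858 against 12271 and 14963. For 11 muscle probe sets the sums were 20559 and 16948 against 11854 and 17332. For 7 germline and maternal probe sets they were 18231 and 16285 against 24116 and 19190. The median log2 fold changes of these lists were 0.52, 0.36 and -0.38, that of intestine and that of hypodermis were both 0.22, and 0 members of these lists passed limma. With the replicate block 3 of 14 tested pan-neuronal, 2 of 10 muscle and 1 of 6 intestine probe sets were higher, against the 4.37% of all tested. Lower in that fit were 1 of 6 intestine and 1 of 7 germline and maternal probe sets, against 394 of 13096 tested probe sets. Both signals labelled *daf-19(-)* lay above both others in 7 of 16 pan-neuronal, 6 of 11 muscle and 3 of 6 hypodermis probe sets. The same held for 2 of 6 intestine, 0 of 7 germline and maternal and 2 of 9 ciliated neuron probe sets, against the 26.4% of all. In the same order of lists they lay below both in 2, 0, 1, 2, 2 and 1, against 3953 of all 22548 probe sets. The 4 probe sets of the adult yolk genes *vit-2*, *vit-5* and *vit-6* summed to 112.4 and 160.5 against 98.1 and 798.4, the highest on replicate 2 labelled *daf-19(+)*, the array without which most core probe sets passed. The part of tissue or stage differences in the core's values was not tested.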

How the data were processed

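The authors hybridized each RNA to its own chip, scanned it, and processed it in GCOS, whose version was not given in the sources used, with all probe sets of a chip scaled to a common target signal. As deposited, the values are linear intensity readings of 1 channel, and 0 value columns were left unused. Controls (77) were left out. Probe sets were named from the platform annotation, 20766 with 1 gene, 887 with several and 895 with none, and 20701 of the former were matched to RefSeq. Signals of 80 or more on at least 2 arrays were required, and 13096 probe sets were tested as log2(signal + 16) with limma 3.58.1 in R 4.3.3 (lmFit, eBayes with a variance trend, two-sided, Benjamini-Hochberg over all tested). The fitting was tested on simulated data. Ratios are of mean signals, with a threshold of 2, the cut the study also applied to its own ratios. Groups follow the deposited labels. Differences between replicates 1 and 2 correlated at 0.12 between the groups across probe sets, which are not independent. The fit without a block is reported first, since no test is named for the arrays. Its standard errors and p-values leave out the pairing by replicate number, which the fits with the block take up. Every probe set of the 8 genes was named; genes of the transport lists were named where they passed limma or were 2-fold, and *dyf-11*, the kinesin genes and the markers were named beyond that rule. Genes and lists were chosen with earlier results of these data known. Alternatives were other filters, offsets and scalings, no variance trend, a replicate block with and without the filter, arrays left out and a floor of 80. A planned search of promoters for X-boxes was not run. With 2 arrays a group, their number limits the precision.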

Additional observations from a re-analysis of the deposited data

How the results depend on the processing

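All 10 core probe sets kept a positive log2 fold change under every setting run on them, and the filter at 200 left 2, both positive. Core probe sets passing limma numbered 3 in the fit reported, 0 with no filter, 5 with an offset of 64, 8 with the replicate block, 4 with the replicate block and no filter, and 0 to 6 with 1 array left out, 0 without either array labelled *daf-19(-)*. *ifta-2* missed the threshold with an offset of 1 (adjusted p = 0.104), after quantile normalization (0.0746), with arrays scaled to the same median (0.0576) and with no variance trend (0.152), each from limma, and *osm-5* 188198_s_at and *osm-6* passed in all 4. Core probe sets 2-fold higher numbered 9, and 5 with signals under 80 set to 80. Without replicate 1 labelled *daf-19(+)* the ratio of *dyf-13* fell under 2, to 1.79. The core's median of 2.07 was 3.22 with an offset of 1, 1.25 with an offset of 64, and 0.88 with signals under 80 set to 80, a setting chosen after seeing the data. The planned search of promoters for X-boxes was not run. It was 1.90 after quantile normalization and 1.88 with arrays scaled to the same median, which moved the median of all tested probe sets from 0.06 to -0.20. Of all tested probe sets, 47 were higher and 11 lower by limma. The counts were 11 and 2 with no filter, 26 and 2 with no variance trend, 572 and 394 with the replicate block, and 96 and 74 with the replicate block and no filter, which was added after seeing the data. With an offset of 64, 59 were higher and 20 lower. Leaving out 1 array gave 14 to 971 higher and 4 to 614 lower, the highest without replicate 2 labelled *daf-19(+)*. Quantile normalization gave 31 higher, and scaling to the same median 25 higher and 12 lower, a share of rises of 67.6% against 81%. Probe sets 2-fold higher numbered 410, against 128 lower (76.2% rises), 2867 with no filter, 137 with the filter at 200, 232 after quantile normalization (51.4% rises), 203 with arrays scaled to the same median (29.7% rises), and 398 to 1232 with 1 array left out. With 2 arrays a group and core signals mostly under 80 on the arrays labelled *daf-19(+)*, the size of most ratios is uncertain, and the causes of changes under other settings were not tested.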
